A study of Mus musculus with 2 samples.

Results

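The genes described here are 10 genes of smooth muscle and mural cells: Myh11, Mylk, Lmod1, Tagln, Cnn1, Smtn, Eln, Fbln5, Rgs5 and Cspg4. They are 10 of 43346 gene rows in each of 2 gene tables. They were selected on measured values, namely their TPM, their expected count and the difference between the 2 libraries, so their levels and differences are given as a description with no test. TPM is a level scaled for sequencing depth and for length of transcript, so it can be compared between genes. It is a share of the library total, so its difference between libraries also depends on what else each library holds. Differences of single genes are therefore given on scaled counts. An expected count is the estimated number of reads assigned to a gene.

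Both libraries were total RNA from the heart of mice with no allele or treatment listed, strain B6NCrl (a C57BL/6 substrain), at embryonic day 14.5. The labels name 1 group with biological replicates 1 and 2, each a single heart, collected on day 15 and day 17 of month 7. They also list the sex of each sample as a pool of both sexes, and the labels do not say how that goes with a single heart. Embryo and collection day differ together, so they cannot be told apart, and with 1 library per heart no test of embryos and no p-value is possible. The source label names heart tissue and does not say where the heart was trimmed. In these bulk samples fewer cells of a type and less RNA per cell cannot be told apart.

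Smooth muscle contracts when calcium-bound calmodulin activates myosin light chain kinase, which phosphorylates the regulatory light chain and lets smooth muscle myosin pull on actin. In the developing heart, smooth muscle forms the walls of the great arteries and, later, of the coronary arteries, while pericytes, the mural cells of small vessels, wrap the capillaries. Vascular smooth muscle also lays down elastic fibres of elastin on a scaffold of microfibrils. Several contractile genes of smooth muscle, Tagln and Acta2 among them, are also transcribed in embryonic heart muscle, and elastin and fibulin genes are also made by fibroblasts and valve cells.

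Replicates 1 and 2 held 2.85e+07 and 2.90e+07 expected counts, of which 2.75e+07 and 2.79e+07 lay on gene rows. ERCC spike-in RNAs took 3.74% and 3.55% of all counts, and haemoglobin genes took 2.33% and 1.31% of the gene counts. Cardiomyocyte markers were present at high level, with all 12 of the list reaching 1 TPM in each library and Myl2, the ventricular light chain, at 8249 ± 438 TPM (SD, n = 2).

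The 10 genes spanned a wide range of levels, and the order of their mean TPM was Eln, Cnn1, Tagln, Smtn, Fbln5, Cspg4, Rgs5, Mylk, Myh11 and Lmod1. Of the 9 neighbouring pairs in that order, only Myh11 and Lmod1 had ranges over the 2 libraries that overlapped. Both libraries were at 1 TPM or above for 8 of the 10, the exceptions being Myh11 and Lmod1. The median TPM of the 10 was 22.1 in replicate 1 and 28.7 in replicate 2, and their sum was 424 and 554 TPM. Together they held 0.0880% and 0.113% of the gene counts. Elastin alone made up 30.5% and 39.0% of the summed TPM. Matrix and actin-binding genes therefore led the set by level, and the myosin that marks mature smooth muscle stood next to last.

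**Figure D1:**
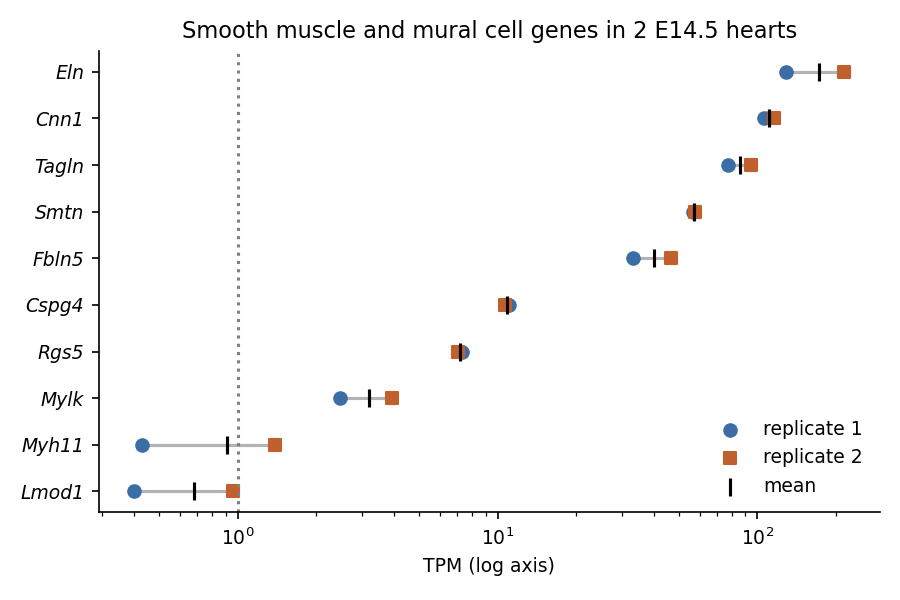
TPM (log axis) of the 10 genes, ordered by mean, with a blue circle for replicate 1, an orange square for replicate 2, a black tick for their mean and a grey line for the range. The dotted line marks 1 TPM; Eln is at the top with 129 and 216 TPM, and Myh11 and Lmod1 are the 2 genes with a value under the line.

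Myh11, the smooth muscle myosin heavy chain, was at 0.43 TPM in replicate 1 and 1.39 TPM in replicate 2 (0.91 ± 0.679, SD, n = 2). These levels rested on 59 and 191 counts. Replicate 2 was 3.10-fold above replicate 1 on TMM-scaled counts, where TMM is edgeR's correction for library composition, with a 95% interval of 2.32 to 4.25. All such intervals cover counting error alone, and amplified reads do not stand for separate molecules. The gene lies at chr16:14194535-14291372 on the minus strand (GRCm38, GENCODE M21). It was measured through 1 transcript of 41 exons and 6632 nt. Of the other non-sarcomeric myosin heavy chains, Myh10 (94.1 ± 1.31 TPM) and Myh9 (24.4 ± 0.297 TPM), both nonmuscle forms, were above it in both libraries. Myh11 was 0.363% of the summed TPM of this family in replicate 1 and 1.14% in replicate 2. Smooth muscle myosin was thus the minor form beside nonmuscle myosin in both hearts.

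Mylk, the calmodulin-dependent myosin light chain kinase of smooth muscle and nonmuscle cells, was at 2.48 TPM in replicate 1 and 3.93 TPM in replicate 2 (3.21 ± 1.03, SD, n = 2). Its 322 and 525 counts put replicate 2 above by 1.57-fold (1.36 to 1.81). The cardiac kinase Mylk3 stood at 196 ± 14.4 TPM, so Mylk held 1.19% and 2.07% of the TPM of the kinase family. Mylk lies at chr16:34745210-35002420 on the plus strand, on the same chromosome as Myh11. Annotated antisense genes E130310I04Rik and Gm21691 share 548 and 224 bases with its exons. Their levels were not analysed here.

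Lmod1, leiomodin 1, an actin filament nucleator of smooth muscle, was the lowest of the 10, with 0.40 TPM in replicate 1 and 0.96 TPM in replicate 2 (0.68 ± 0.396, SD, n = 2). The 32 and 78 counts behind these levels gave a difference of 2.33-fold, with an interval of 1.54 to 3.66. The gene lies at chr1:135324807-135368065 on the plus strand. Its heart and skeletal muscle relatives were far higher, with Lmod2 at 43.5 ± 1.20 TPM and Lmod3 at 17.2 ± 0.721 TPM. The related tropomodulins, which cap actin filaments, were at 175 ± 5.56 TPM for Tmod1 and 38.7 ± 0.813 TPM for Tmod3. Lmod1 held 0.143% and 0.353% of the TPM of these 5 genes.

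The 3 actin-associated genes Tagln, Cnn1 and Smtn were at much higher levels and closer between the hearts. Tagln, transgelin or SM22 alpha, was at 77.4 TPM in replicate 1 and 94.2 TPM in replicate 2 (85.8 ± 11.9, SD, n = 2). Counts of 2407 and 2946 gave a difference of 1.18-fold (1.12 to 1.24), with replicate 2 the higher. It lies at chr9:45929619-45936058 on the minus strand, where its exons share 108 bases with Pcsk7 (693 and 660 counts) on the opposite strand and 1241 bases with the antisense gene Gm48529, which was not analysed here. Its relative Tagln2, widely expressed outside muscle, was at 146 ± 4.45 TPM, and Tagln held 33.9% and 39.3% of the TPM of the family.

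Cnn1, calponin 1, which binds actin and restrains the myosin ATPase, was at 106 TPM in replicate 1 and 115 TPM in replicate 2 (111 ± 6.72, SD, n = 2). The libraries gave 5031 and 5511 counts and a difference of 1.05-fold (1.01 to 1.10). This is a small difference, whose counting interval nevertheless lay above 1. The gene lies at chr9:22099216-22109630 on the plus strand. Both other calponin genes exceeded it, Cnn2 with 203 ± 5.68 TPM and Cnn3 with 289 ± 7.52 TPM, and Cnn1 held 17.8% and 19.0% of the family.

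Smtn, smoothelin, a cytoskeletal protein of contractile smooth muscle, was at 56.4 TPM in replicate 1 and 57.8 TPM in replicate 2 (57.1 ± 1.00, SD, n = 2). With 3176 and 3157 counts, the log2 difference of replicate 2 over replicate 1 was -0.06, and its interval from -0.13 to 0.01 spanned 0. TPM put replicate 2 slightly ahead, so no direction is read for Smtn. It divides by an average transcript length, which was 2793 nt in replicate 1 and 2696 nt in replicate 2, and it is not TMM-scaled. On log2 of TPM + 1, the median difference of all genes with a mean count of 100 or more also moved up by 0.045. Smtn lies at chr11:3517523-3540612 on the minus strand and shares 714 exonic bases with Gm11946 (45.7 and 41.3 counts) on the other strand. Its relative Smtnl2 was higher, at 92.9 ± 3.15 TPM, and Smtn held 38.3% and 37.8% of the family.

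The pair of elastic fibre genes was higher in replicate 2. Eln, which encodes tropoelastin, the monomer of elastin, was at 129 TPM in replicate 1 and 216 TPM in replicate 2 (173 ± 61.2, SD, n = 2). Its 6722 and 11283 counts gave a difference of 1.62-fold (1.57 to 1.67), the narrowest interval among the 4 genes past 1.5-fold. Eln lies at chr5:134702593-134747323 on the minus strand, has 37 exons in its measured transcript and shares 267 exonic bases with the antisense gene Gm30003, not analysed here. Fbln5, fibulin 5, which is needed to assemble elastin into fibres, was at 33.2 TPM in replicate 1 and 46.7 TPM in replicate 2 (40.0 ± 9.50, SD, n = 2). From 3985 and 5626 counts the difference was 1.36-fold (1.31 to 1.42). Fbln5 lies at chr12:101746565-101819055 on the minus strand. It was below the fibulins Fbln1 (113 ± 18.5 TPM), Fbln2 (105 ± 9.52 TPM) and Efemp2 (51.1 ± 5.07 TPM, fibulin 4) in both libraries, with 11.5% and 13.2% of the family.

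The pair of pericyte genes was nearly level between the hearts. Cspg4, the NG2 proteoglycan of the pericyte surface, was at 11.1 TPM in replicate 1 and 10.7 TPM in replicate 2 (10.9 ± 0.269, SD, n = 2). Its 1839 and 1784 counts gave a log2 difference of -0.10, with an interval from -0.19 to -0.0037, so replicate 1 was the higher by 1.07-fold, a direction that flipped with spike-in scaling (0.013). Cspg4 lies at chr9:56865033-56899870 on the plus strand and was above Cspg5 (0.775 ± 0.0919 TPM). Of the 9 genes with listed relatives it alone exceeded all of its own. However, only 1 relative was listed for Cspg4, against 2 to 5 for the other genes, so this sets it apart by the list alone. Rgs5, a regulator of G-protein signalling known as a pericyte marker, was at 7.33 TPM in replicate 1 and 7.04 TPM in replicate 2 (7.19 ± 0.205, SD, n = 2). With 613 and 592 counts its log2 difference was -0.10, and the interval from -0.27 to 0.06 spanned 0. Rgs5 lies at chr1:169655501-169695813 on the plus strand and was below Rgs3 (49.4 ± 6.35 TPM) and Rgs2 (16.5 ± 2.05 TPM).

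In all, 7 of the 10 genes were higher in replicate 2 and 3 (Smtn, Rgs5 and Cspg4) in replicate 1, although with spike-in scaling those 3 also lay just above 0, at 0.048, 0.0066 and 0.013. The median log2 difference of the 10 was 0.34, beside -0.0038 over the 11958 gene rows whose mean count was 100 or more, of which the central 95% lay between -0.36 and 0.46. Of the 10 genes, 9 reached that mean count. Myh11 passed it only through replicate 2, and Lmod1 did not, with a mean of 55. Among the 9, only Myh11 was at least 2-fold apart, against 51 of all gene rows (0.426%), or 37 higher in replicate 2 (0.309%). On log2 of TPM + 1, which shrinks low genes, Myh11 was at 0.74 and no gene was 2-fold apart. At 1.5-fold there were 3, Myh11, Eln and Mylk, all higher in replicate 2, against 233 gene rows in either direction (1.95%) and 160 higher in replicate 2 (1.34%). When the minimum was a mean count of 10, Lmod1 joined them, making 2 of 10 genes at 2-fold and 4 of 10 at 1.5-fold, where 2.49% and 6.14% of 16387 gene rows were that much higher in replicate 2. The difference between the libraries was part of how these genes were selected, so nothing is read from these counts.

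**Figure D2:**
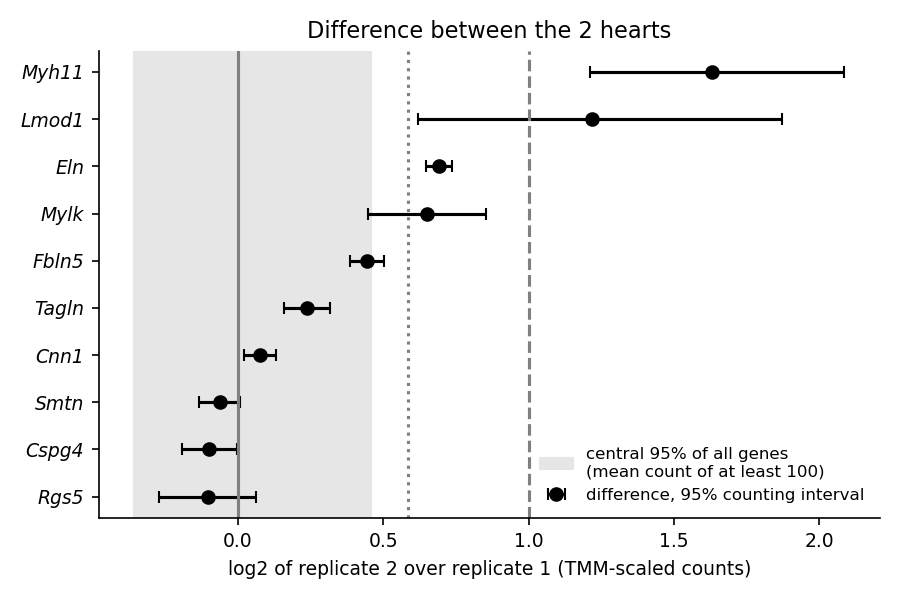
Log2 of replicate 2 over replicate 1 on TMM-scaled counts for each gene (points) with its 95% counting interval (bars); the grey band is the central 95% of all genes whose mean count was 100 or more, and the dotted and dashed lines mark 1.5-fold and 2-fold. Myh11 (1.63), Lmod1 (1.22), Eln (0.69) and Mylk (0.65) lie to the right of the band, and Smtn, Cspg4 and Rgs5 lie just left of 0 (just right of it with spike-in scaling).

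The counting interval is a lenient yardstick at this depth. It lay above 0 for 6 of the 9 genes and below 0 for Cspg4 alone, but over all gene rows it lay above 0 for 17.4% and below 0 for 19.8%. Eln and Fbln5, with the larger counts, had intervals far narrower than those of Myh11 and Lmod1. Among genes of similar count, the spread between the libraries was wide near the counts of Lmod1 and Myh11 and narrow near that of Eln.

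**Figure D3:**
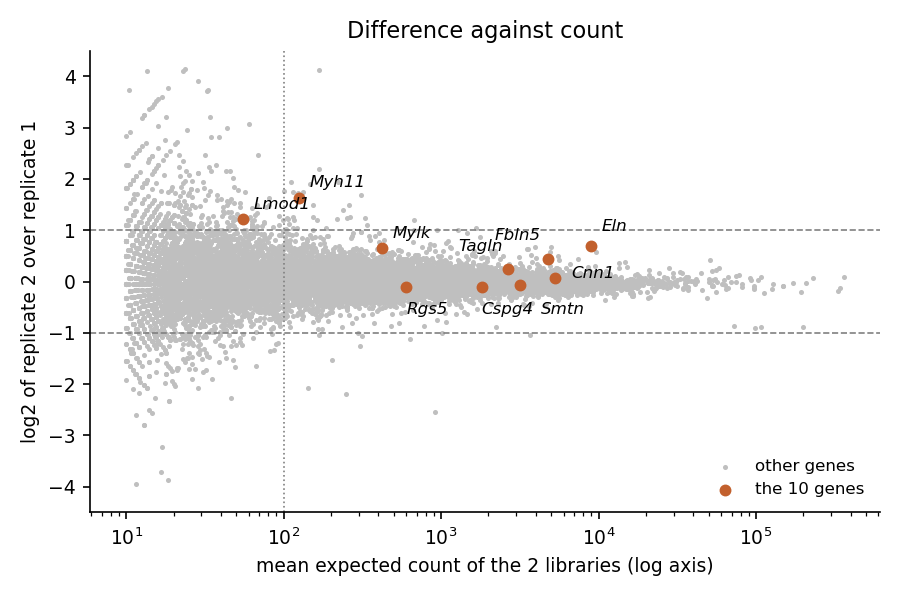
Log2 of replicate 2 over replicate 1 against the mean expected count (log axis) for genes whose mean count was 10 or more (grey) and the 10 genes (orange); dashed lines mark 2-fold, the dotted line a mean count of 100, and 32 genes beyond 4.5 in either direction are not drawn. Eln lies at the upper edge of the narrow cloud at its count, while Lmod1, at a mean count of 55, lies where the cloud is wide.

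Promoter sequence was examined for the genes with an entry in a RefSeq promoter table (GRCm38.p6), each window holding 250 bases before and 50 bases after a start site. The table matched 7 of the 10 genes with 8 windows, Fbln5 having 2, and Myh11, Tagln and Eln were not matched. The 4 windows below are shown because Lmod1 and Mylk were past 1.5-fold between the hearts while Cnn1 and Cspg4 were not. Smtn, Rgs5 and Fbln5 were not past it either, and their windows are not shown. No link between sequence and the difference between the hearts is read from this choice. Each is given 5′ to 3′ on the strand of the gene, as the 250 bases before the RefSeq start site. They cover chr1:135324563-135324812 for Lmod1, chr16:34784700-34784949 for Mylk, chr9:22099003-22099252 for Cnn1 and chr9:56864854-56865103 for Cspg4, all on the plus strand. Capitals mark an E box (CANNTG) or a sequence within 1 mismatch of a CArG box.
Lmod1: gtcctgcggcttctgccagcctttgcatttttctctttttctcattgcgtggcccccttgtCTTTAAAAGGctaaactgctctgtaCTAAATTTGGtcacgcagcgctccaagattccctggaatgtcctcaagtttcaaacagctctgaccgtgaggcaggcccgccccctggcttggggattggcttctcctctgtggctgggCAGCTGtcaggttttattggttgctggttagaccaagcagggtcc
Mylk: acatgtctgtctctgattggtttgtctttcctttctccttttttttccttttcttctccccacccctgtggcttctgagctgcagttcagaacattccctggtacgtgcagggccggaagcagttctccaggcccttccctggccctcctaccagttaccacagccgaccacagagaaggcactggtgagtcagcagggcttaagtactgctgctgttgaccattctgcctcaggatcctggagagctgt
Cnn1: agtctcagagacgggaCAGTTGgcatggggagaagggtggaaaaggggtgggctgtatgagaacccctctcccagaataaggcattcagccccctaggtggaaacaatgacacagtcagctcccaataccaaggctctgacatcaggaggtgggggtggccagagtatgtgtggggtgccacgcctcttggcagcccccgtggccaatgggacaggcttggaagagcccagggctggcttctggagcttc
Cspg4: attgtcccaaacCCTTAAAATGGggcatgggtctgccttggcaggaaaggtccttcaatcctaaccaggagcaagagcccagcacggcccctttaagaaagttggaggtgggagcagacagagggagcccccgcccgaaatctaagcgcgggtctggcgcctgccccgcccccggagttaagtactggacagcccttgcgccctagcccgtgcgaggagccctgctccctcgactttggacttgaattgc

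The CArG box is the binding sequence of serum response factor, the factor through which myocardin switches on smooth muscle contractile genes. No exact CArG box was found on either strand in any of the 8 windows, and 1.63% of the 32851 windows in the whole table hold one. Allowing 1 mismatch, a setting added after the exact search, gave 2 genes, Lmod1 and Cspg4, against 21.1% of all windows. In Lmod1 the matches were CTTTAAAAGG, starting at -189 from the start site, and CTAAATTTGG, starting at -164. In Cspg4 a pair of overlapping matches began at -238 and -237. The sequence TATAAA was in none of the 8 windows and in 13.6% of all windows. An E box, which basic helix-loop-helix factors bind, was in a window of 5 genes (Cnn1, Fbln5, Lmod1, Rgs5 and Smtn), against 72.3% of all windows. In Cnn1 it began at -234, and in Lmod1 at -45 and again at 32 after the start. A match is a description of letters and not a measured site, and the lack of one says only that these letters are not in this window. Lmod1 and Cspg4 both had a near match, while Mylk had none of the motifs searched.

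Transcript tables added a layer that the choice of genes had not used. In the annotation of the tables, 7 of the 10 genes had 1 transcript, and Mylk, Smtn and Rgs5 had more. The later GENCODE M21 lists more transcripts for 7 of the 10, among them Mylk, with 8 in place of 2. For Mylk, Mylk-201, a coding transcript of 7824 nt, held 67.7% of the gene's TPM in replicate 1 and 71.0% in replicate 2 (69.4% ± 2.30, SD, n = 2). The remainder, 32.3% and 29.0%, was assigned to Mylk-202, a model with a retained intron and no coding sequence. By expected count, which is not divided by length and so weighs long models more, Mylk-201 held 85.5%. Of the 2 Mylk models measured, the coding one thus led in both hearts by either measure. Forms missing from this annotation could not be given reads of their own, so the shares depend on it.

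Smtn had 10 transcripts. Smtn-202, a full-length coding form, led with 52.1% of TPM in replicate 1 and 50.0% in replicate 2 (51.0% ± 1.52, SD, n = 2), or 62.4% by expected count. The other coding forms past 10% were Smtn-201, with 17.4% and 17.6%, and Smtn-203, with 16.2% and 18.6%. Smtn-201 has 9 exons and a coding sequence of 1308 nt, and it starts inside the gene, at base 3527937 of chromosome 11. Long and short smoothelin forms from separate start sites are known, the short one mainly in visceral and the long one in vascular smooth muscle. The division among long forms was poorly determined, since the posterior SD of the count of Smtn-202 was 151 and 137 reads while that of the whole gene was 1.72 and 1.60. For Rgs5 all of the TPM went to 1 of its 2 transcripts in both libraries.

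**Figure D4:**
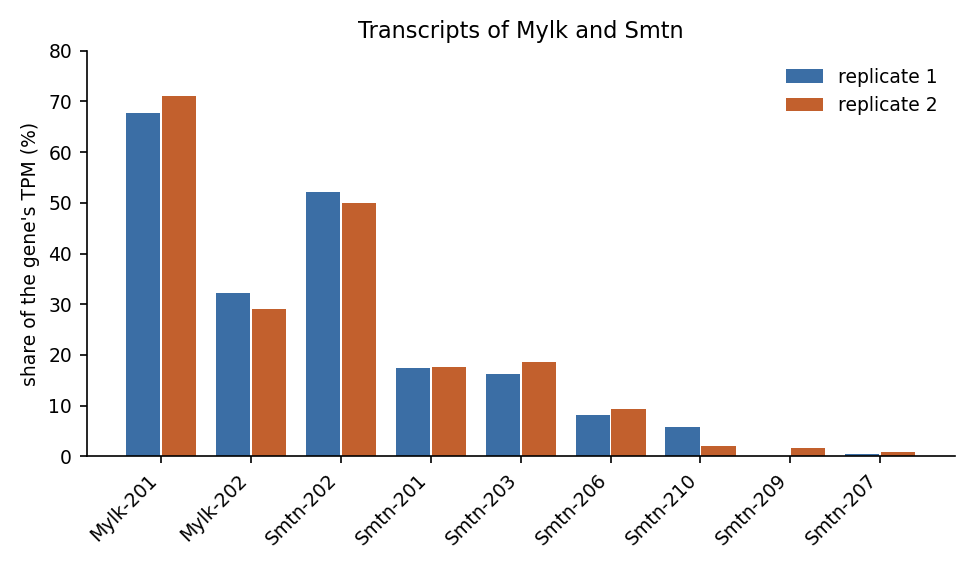
Share of the gene's TPM (%, bars) for the transcripts of Mylk and Smtn, blue for replicate 1 and orange for replicate 2. Mylk-201 (67.7% and 71.0%) and Smtn-202 (52.1% and 50.0%) are the tallest bars of their genes in both libraries.

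Partners of these genes were read from lists chosen by function. All 18 contractile partners reached 1 TPM in each library, led by Myl9 (1628 ± 81.2 TPM), the smooth muscle regulatory light chain that Mylk phosphorylates, Acta2 (1032 ± 42.0 TPM), smooth muscle alpha-actin, Pln (724 ± 36.1 TPM), phospholamban, and Csrp1 (138 ± 47.3 TPM). Acta2 and Pln are also expressed by embryonic cardiomyocytes. Only Csrp1 (104 and 171 TPM, 1.59-fold) and Actg2 (4.79 and 9.42 TPM, 1.83-fold), smooth muscle gamma-actin, were at least 1.5-fold apart, both higher in replicate 2, and the median log2 difference of the list was -0.03. Of all gene rows with a mean count of 100 or more, 1.34% were at least 1.5-fold higher in replicate 2. Acta2 and Myl9, the smooth muscle actin and light chain of greatest abundance, were thus nearly level between the hearts. The less abundant actin Actg2 was higher in replicate 2, as were Myh11, Mylk and Lmod1. No contrast between Myh11, Mylk and Lmod1 and this list is read, since their difference between the libraries was part of their selection.

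Among 18 mural and pericyte partners, 15 reached 1 TPM in each library. The highest were Mcam (100.1 ± 0.361 TPM), the guanylate cyclase subunits Gucy1a1 (50.8 ± 4.44 TPM) and Gucy1b1 (47.0 ± 1.35 TPM), and Ndufa4l2 (23.8 ± 2.24 TPM). Rgs4, also a relative of Rgs5, was the only one past 1.5-fold among the 15 whose mean count was 100 or more, at 1.48 and 3.66 TPM (2.39-fold). Of all gene rows with that count, 1.34% were at least 1.5-fold higher in replicate 2. Of the 3 below that count, Vtn had 4 and 9 counts, Higd1b 7 and 4, and Steap4 29 and 24. The median log2 difference was -0.01 over all 18 and 0.02 over the 15. By these medians the list was nearly level between the hearts, as were Rgs5 and Cspg4.

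All 16 elastic fibre partners reached 1 TPM in each library, led by the microfibril gene Mfap2 (210 ± 27.7 TPM), the fibulins Fbln1 and Fbln2 and the microfibril gene Mfap4 (104 ± 12.5 TPM). None was 1.5-fold apart, but 15 of the 16 were higher in replicate 2, with a median log2 difference of 0.16, against 0.69 for Eln and 0.44 for Fbln5. The median over all gene rows with a mean count of 100 or more was -0.0038. The shift was not particular to this list, since all 10 fibroblast markers were also higher in replicate 2, with a median of 0.22. Fbln1 is in both lists. All 19 regulators of smooth muscle reached 1 TPM too. Highest were the transcription factor Gata6 (58.5 ± 5.28 TPM), the coactivator Myocd (51.6 ± 0.184 TPM), Tgfb2 (38.7 ± 0.481 TPM) and the receptor Tgfbr1 (23.3 ± 0.361 TPM). No regulator was 1.5-fold apart, and the median difference was 0.04. Myocardin, which is also expressed in heart muscle, was at 51.5 and 51.7 TPM, so its level was nearly the same in both hearts.

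Markers of other cell types are given beside these differences, and their part in them was not tested. Of all gene rows with a mean count of 100 or more, 1.34% were at least 1.5-fold and 0.309% at least 2-fold higher in replicate 2. Sinus node and venous pole markers were higher in replicate 2 for all 9 (of 10) whose mean count was 100 or more, 6 by at least 1.5-fold, and their summed TPM was 85.7 in replicate 1 and 144 in replicate 2. Of these, Shox2 (3.23-fold), Isl1 (3.22-fold) and Vsnl1 (2.29-fold) were past 2-fold, and Smoc2 (30.7 ± 13.3 TPM) and Tbx5 (23.9 ± 1.94 TPM) were the highest by level. Neuron and neural crest markers summed to 101 and 125 TPM, and 3 of the 7 (of 12) above that count were past 2-fold, namely Tubb3 (3.86-fold), Stmn2 (3.36-fold) and Ngfr (2.30-fold), all higher in replicate 2. The highest of that list, Ednrb (76.6 ± 3.07 TPM) and Gap43 (18.9 ± 3.91 TPM), were not. Myh11 and Lmod1 therefore differed in the same direction as these markers, in the same 2 libraries.

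All 10 fibroblast markers were higher in replicate 2, none by 1.5-fold, and their sum was 1841 and 2207 TPM, with Col3a1 (708 ± 104 TPM) and Col1a1 (373 ± 34.9 TPM) leading. Of 8 erythroid markers, 7 were at least 1.5-fold higher in replicate 1, among them Slc4a1 and Alas2 past 2-fold, and the sum was 60858 and 34540 TPM. Of all gene rows with a mean count of 100 or more, 0.61% were at least 1.5-fold higher in replicate 1 and 1.34% in replicate 2. The median log2 difference was -0.13 for cardiomyocyte markers, -0.10 for endothelial markers, 0.09 for cushion and valve markers and 0.11 for epicardial markers. For the 4 of 8 skeletal muscle markers whose mean count was 100 or more, the median was 0.08. Among the genes of those lists whose mean count was 100 or more, 1 cushion and valve marker and 1 epicardial marker were at least 1.5-fold apart, each higher in replicate 2. In the skeletal muscle list, the lineage factors Myod1 and Myf5 had no count in either library, where a count of 0 allows up to 3, while the factor Myog had 14 and 16 counts. The fast-muscle genes Tnni2 and Mylpf were at 21.3 ± 3.73 TPM and 10.6 ± 2.21 TPM, and Myh3, below the count minimum, had 1 count in replicate 1 and 54.9 in replicate 2.

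**Figure D5:**
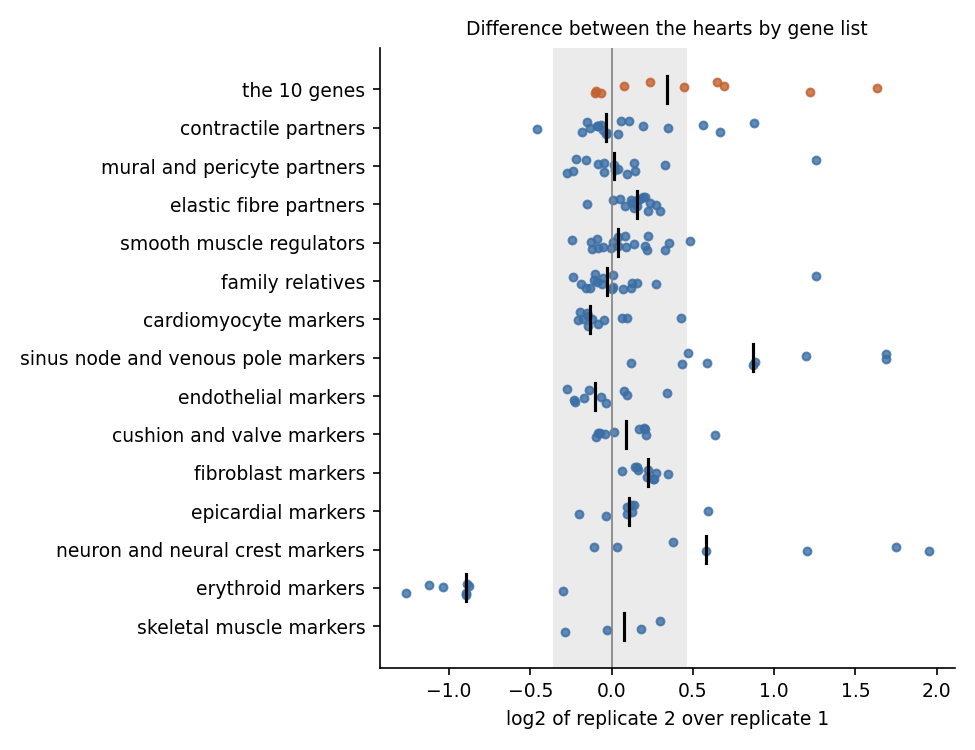
Log2 of replicate 2 over replicate 1 for the 10 genes (orange) and for the members of 14 other lists whose mean count was 100 or more (blue), with a black tick at each median and a grey band for the central 95% of all genes with that count. The 10 genes run from -0.10 to 1.63, contractile and mural partners centre near 0, and erythroid markers lie to the left.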

How the data were processed

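Gene and transcript tables of total RNA from 2 hearts were used (10 ng of RNA above 200 nt per library, mirVana extraction, spike-ins added, per the labels). The expected counts are estimated counts that the authors computed per gene and per transcript, unscaled, per the file headers. TPM and, as an alternative, FPKM were scaled by the authors for length and depth and deposited in the same tables. The deposited posterior mean count and posterior SD (unit: score) describe how uncertain the split of reads is. Per the submitters' processing notes the tables use mm10 and GENCODE M4. No source used here gives the aligner, the quantifier or whether counting used strand, so reads of overlapping antisense genes may be counted together. The posterior SD of the gene count was 0 in both libraries for 9 of the 10 genes.

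Symbols and positions came from GENCODE M21 (98.0% of gene rows had one, and all 195 list places matched). Expected counts were rounded and scaled with TMM (edgeR 4.0.16, R 4.3.3), and the log2 difference used a prior count of 0.5 with an exact Clopper-Pearson 95% interval. DESeq2 1.42.0 size factors were an alternative, as were scalings by spike-ins or totals, other count minimums, FPKM, shares by count and single libraries. The calculation was tested on simulated data (Python 3.11.15). The libraries differed beyond counting noise, with a chi-square averaging 14.2 per gene over 16387 genes and a median of 1.83. Depth is the total expected count per library. Precision is limited by counts of under 100 for Lmod1 in both libraries and for Myh11 in replicate 1 (59 counts).

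The genes and lists were chosen with earlier results of these data known. Named were all 10 genes, their relatives of highest or higher mean TPM, the 4 highest of each partner list and those at least 1.5-fold apart, and the 2 highest of each marker list and those at least 2-fold apart (mean count of at least 100). Outside that rule, the low-count mural partners and the skeletal muscle genes were named after their values were seen. Endothelial, cushion and epicardial markers are given only as list values, and some genes that meet the rule are not reported here.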

Additional observations from a re-analysis of the deposited data

How the results depend on the processing

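Each of the 10 gene differences was recomputed under 7 alternatives, 70 values in all, of which 60 moved by less than the counting error, 6 moved by more and 4 changed sign. The 70 values are not independent. The posterior mean count gave the main value again for each of the 10 genes, and each change of scaling moved all genes by about the same amount. The sign changes were in the 3 genes that lay below 0. With spike-in scaling Smtn was at 0.048, Rgs5 at 0.0066 and Cspg4 at 0.013, and on log2 of TPM + 1 Smtn was at 0.035. Spike-in scaling moved the median of all genes by 0.11, and the median of the 10 genes to 0.45. On log2 of TPM + 1, which shrinks low genes, Myh11 was at 0.74 and Lmod1 at 0.49. The number of genes at least 2-fold apart was 1 in the report, 0 on log2 of TPM + 1, 2 with a mean count of at least 10 or with no filter, and 0 with at least 500, where 1 gene (Eln) was 1.5-fold apart. The higher minimum removes Myh11 and Mylk, and the lower ones admit Lmod1. The median level was 18.5 as FPKM, 31.1 as TPM without haemoglobin, mitochondrial genes and spike-ins, and 22.1 to 28.7 in single libraries. By expected count, which is not divided by length and so weighs long transcripts more, Smtn-202 held 62.4% and Mylk-201 held 85.5% of their genes. In single libraries these shares by TPM were 50.0 to 52.1% and 67.7 to 71.0%. Allowing 1 mismatch in the CArG box, added after seeing the data, gave 2 genes in place of 0. No paired analysis was possible because there is only 1 group.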

Other observations

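A few relatives and listed markers with low counts had large differences between the libraries. They were chosen after their values were seen, and their intervals cover counting error only. Myh14, a nonmuscle myosin heavy chain, had 9 counts in replicate 1 and 54 in replicate 2 (0.34 and 1.45 TPM), a 5.53-fold difference with an interval of 2.83 to 13.3. It was the only one of 26 relatives whose order against its gene differed between the libraries, being below Myh11 in replicate 1 and above it in replicate 2. Prph, which encodes the neuronal filament peripherin, had 9 and 78 counts (7.96-fold, 4.18 to 18.9). Myh3, the embryonic skeletal myosin heavy chain, had 1 count in replicate 1 and 54.9 in replicate 2 (35.9-fold, 9.12 to 2129). In the opposite direction, the kinase gene Mylk4 had 41 counts in replicate 1 and 16 in replicate 2, a smaller difference than that of Myh11.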
